A study of Rattus norvegicus with 6 samples.

Results

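The cytosolic ribosomal protein genes code for the proteins of the large and small subunits of the ribosome that works in the cytoplasm. They were taken by name as the protein-coding genes called Rpl or Rps with a number, together with Rplp0, Rplp1, Rplp2 and Rpsa. The rule itself uses no measured value, but it was chosen with earlier results of these data known. The rule gave 87 of the 34045 genes of the deposited table, with 81 different symbols. Of the 87, 75 carried the name of a canonical ribosomal protein, and 12 were paralogues or copies such as Rpl3l, Rps27l and Rps9l1. The canonical list of 77 symbols matched for 69 (42 of the large and 27 of the small subunit), and Rpl22, Rpl35a, Rpl37, Rpl38, Rps9, Rps13, Rps14 and Rps26 were not analysed here under those symbols.

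Total RNA came from defects cut into the calvaria, the bony top of the skull, of wild type male Sprague-Dawley rats, taken at week 4 after the operation. The defects held a hydrogel named CGG (3 libraries) or a hydrogel named CGG-Cit (3 libraries); the labels do not spell out either name or give the rats' age. All values are FPKM, read fragments divided by the length of the gene and by a scaling factor of the library. The libraries had 14744207 to 16224920 recovered reads, and the factor did not simply follow these. A read per kilobase was worth 0.0640 FPKM in CGG 2 (16224920 reads) and 0.0596 FPKM in CGG-Cit 3 (16127352 reads). Whether the libraries of a group came from separate rats is not stated, so the spread behind each p-value is that between libraries and may be technical. The tissue pieces hold many cell types, and in such bulk RNA fewer cells of a type and less RNA per cell cannot be told apart.

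As background, a ribosome holds a single copy of nearly every ribosomal protein, and growing cells make these proteins in balanced amounts. Their mRNAs are among the most abundant of a cell, and most begin with a C followed by a stretch of C and T, the 5′ terminal oligopyrimidine (TOP) tract, through which mTOR signalling and LARP1 adjust their translation. A few proteins have a tissue-restricted paralogue. Rpl3l replaces Rpl3 in the ribosomes of skeletal and heart muscle.

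The family's promoters are shown because the TOP tract is the sequence feature that ties these genes together. RefSeq promoters of the build GRCr8 were found for 61 of the 81 symbols. A run of at least 5 bases made only of C and T, on the gene's strand and covering the annotated start, was present in 33 of 55 promoters of canonical members (60%), against 12% of all 33469 promoters in the table. The start base itself was C in 52.7% of the canonical promoters and in 24.1% of all promoters. The word CTTTCC, itself made of C and T and so able to overlap such a run, lay within 25 bases on either side of the start in 30.9% of canonical promoters and 2.19% of all. On the other strand the shares were 1.82% and 2.23%. Of the 7 promoters of members outside the canonical set, 1 had the run. The tract, the word and the promoters printed were chosen after sequences and values of members had been seen. Each sequence holds 20 bases before and 20 bases from the annotated start, and capitals mark the run of C and T that covers the start. The first 6 canonical genes hold it. Rpl36 and Rps28, which passed the test below, and the paralogues Rpl3l and Rps27l do not hold it at the annotated start. Neither do Rpl41, Rpl11 and Rps12, canonical genes that did not pass and are not printed. Whether the run goes with the test result was not tested.
Rplp0 (chr12:46718371-46718410, minus strand): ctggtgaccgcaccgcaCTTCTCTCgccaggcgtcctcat
Rplp1 (chr8:71290853-71290892, minus strand): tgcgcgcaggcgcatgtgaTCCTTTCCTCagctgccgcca
Rpl10 (chrX:157205830-157205869, plus strand): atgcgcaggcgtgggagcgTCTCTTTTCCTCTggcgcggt
Rps27 (chr2:177964587-177964626, minus strand): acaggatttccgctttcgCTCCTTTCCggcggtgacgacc
Rps7 (chr6:50999426-50999465, minus strand): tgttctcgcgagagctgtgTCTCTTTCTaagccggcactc
Rpl3 (chr7:113507971-113508010, minus strand): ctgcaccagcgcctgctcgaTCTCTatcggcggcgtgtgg
Rpl36 (chr9:1533760-1533799, plus strand): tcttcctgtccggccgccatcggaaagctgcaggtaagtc
Rps28 (chr7:15311314-15311353, minus strand): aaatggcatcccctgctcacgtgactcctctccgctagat
Rpl3l (chr10:14258426-14258465, plus strand): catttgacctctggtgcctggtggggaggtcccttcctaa
Rps27l (chr8:76443638-76443677, plus strand): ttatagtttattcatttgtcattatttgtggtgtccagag

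Ribosomal protein genes were among the most abundant transcripts of the defects. Of the 87, 66 had a mean of at least 100 FPKM and 34 at least 500 FPKM, and 23 were among the 100 most abundant genes of the table. The median of the 87 members, tested or not, was 340.3 FPKM, against 8.42 FPKM for all genes tested. The highest 3 were Rplp0 and Rplp1, acidic stalk proteins that help recruit elongation factors, and Rpl41, the smallest ribosomal protein. Rplp0 measured 1419, 1539 and 1485 FPKM in the CGG libraries and 1370, 1166 and 1330 FPKM in the CGG-Cit libraries. Rplp1 measured 1324, 1393 and 1380 FPKM against 1248, 1209 and 1186 FPKM, and Rpl41 measured 1198, 1324 and 1239 FPKM against 1067, 1082 and 965 FPKM. All 3 genes had every CGG-Cit library below every CGG library, and none passed the test (adjusted p = 0.301, 0.327 and 0.154).

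Levels within the family were far from equal, although FPKM is per length. Rpl10a and Rpl23a were listed at 0 in every library. Rpl30l1 and Rpl39l lay under the filter on low values, and these 4 genes were not tested. Rpl39l, a paralogue of Rpl39 best known from testis, had at most 1.26 FPKM, while Rpl39 measured 33.6, 36.7 and 35.2 FPKM in CGG and 25.7, 35.4 and 29.6 FPKM in CGG-Cit. Among the canonical rows above the filter, the lowest 3 were the Rpl21 row on chromosome 3, with 0.247 to 2.21 FPKM, Rpl8 and Rpl13a. Rpl8 measured 15.3, 15.5 and 17.7 FPKM against 12, 13.0 and 13.9 FPKM, and Rpl13a 18.4, 18.4 and 20.1 FPKM against 13.6, 14.6 and 16.6 FPKM. Some proteins have several rows, over which reads of one mRNA may be split. The 3 rows that name the protein Rpl8 summed to 62.6 to 94.4 FPKM, while Rpl13a has a single row, and the 3 rows each for Rpl10a and Rpl23a summed to 21.6 to 31.2 and 16.8 to 26.04 FPKM.

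Most members were slightly lower with CGG-Cit, and few passed the test. The question put to the data was whether the family differed between the 2 hydrogels. limma's moderated test on log2(FPKM + 1), with Benjamini-Hochberg adjustment over 15965 genes, called 6 of the 83 tested members lower at an adjusted p under 0.05 (7.23%, against 9.78% of all genes tested) and 1 higher (1.2%, against 7.75%). At an unadjusted p under 0.05, 32 members were lower (18.6% of all genes) and 1 higher (16.7% of all genes). The log2 fold change, CGG-Cit minus CGG throughout, was negative for 74 of the 83 (89.2%, against 49.8% of all genes). All 3 CGG-Cit libraries lay below all 3 CGG libraries for 60 of the 83 (72.3%, against 22.1% of all genes) and above them for 1 (1.2%, against 19.6%). The median log2 fold change was -0.22, which puts CGG-Cit at 85.6% of CGG, and the lower and upper quartiles were -0.30 and -0.18. The median over all genes was 0.00. In single libraries the median member had 372, 378 and 399 FPKM in CGG and 324, 324 and 368 FPKM in CGG-Cit, so the CGG-Cit 3 library came closest to the CGG libraries.

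**Figure D1:**
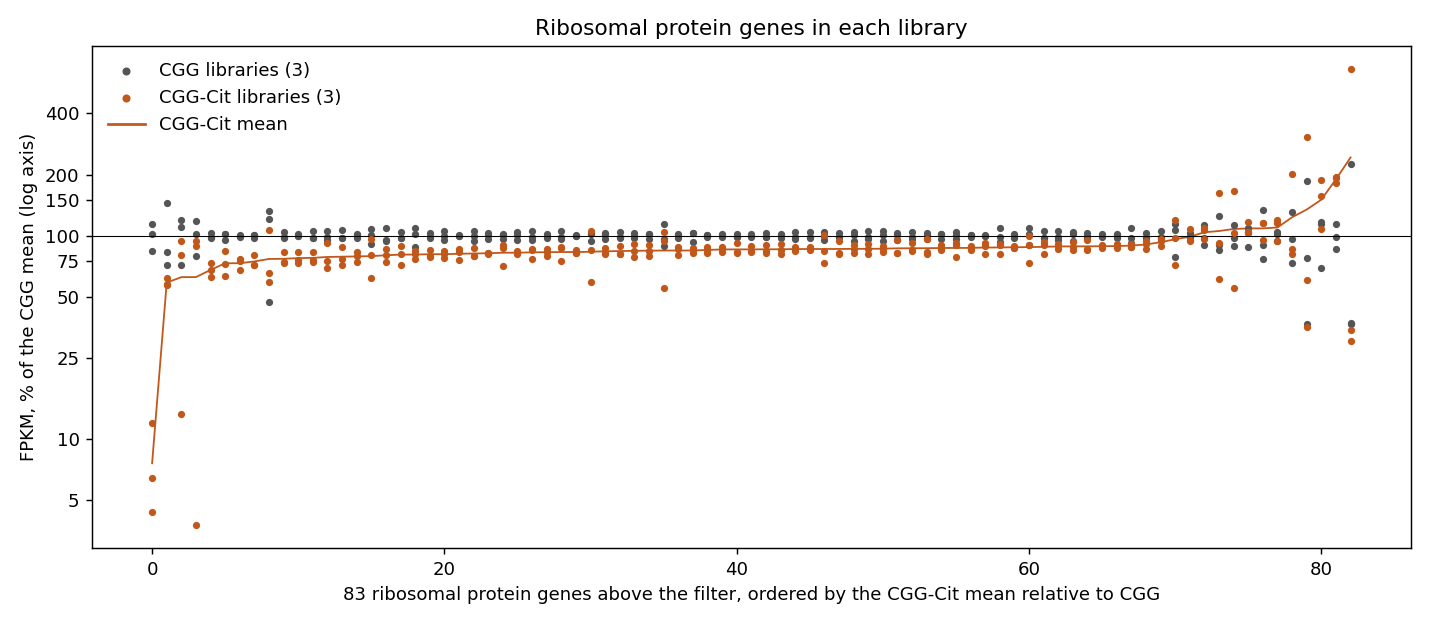
FPKM of the 83 tested ribosomal protein genes in each of the 6 libraries, as a percent of the gene's CGG mean on a log axis, ordered by the CGG-Cit mean. Grey points are the 3 CGG libraries, orange points the 3 CGG-Cit libraries and the line the CGG-Cit mean; over most of the order the orange points lie just below the grey ones, while the genes at both ends scatter widely.

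The size of the shift depended on how the libraries were scaled. Median-of-ratios factors, which balance the typical gene between libraries, were 0.995 to 1.007 on the deposited FPKM. The deposited values were thus already close to balanced in this way, and the median of 0.00 over all genes largely follows from that scaling. The FPKM summed over all genes was 609540 ± 44149 with CGG and 538240 ± 4187 with CGG-Cit (SD, n = 3 each), so setting these totals equal (TPM scaling) raises every CGG-Cit value relative to CGG. After it the median over all genes was 0.15 and that of the members -0.05, which is 0.20 below the median of all genes (0.23 below as deposited). Of the members 62 of 83 were still negative, but 1 passed as lower (5.96% of all genes) and 1 as higher (13.8%), and 7 had all CGG-Cit libraries lower (8.43%, against 11.6% of all genes). The all-gene calls then split into 952 lower and 2202 higher, against 1561 and 1237 as deposited. Globin transcripts of red cells took 8.0% ± 0.561 of the summed FPKM in CGG and 3.77% ± 1.69 in CGG-Cit, and transcripts of the mitochondrial genome took 13.0% ± 2.98 and 9.69% ± 0.648. With quantile normalization the members' median was -0.16, 3 passed as lower (9.65% of all genes) and 26 had all CGG-Cit libraries lower (21% of all genes). With totals made equal over the genes outside the family, 1 member passed as lower (5.88% of all genes), 6 had all CGG-Cit libraries lower (11.6% of all genes), and the median was -0.05. Without the 50 most abundant genes in the totals it was -0.21.

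**Figure D2:**
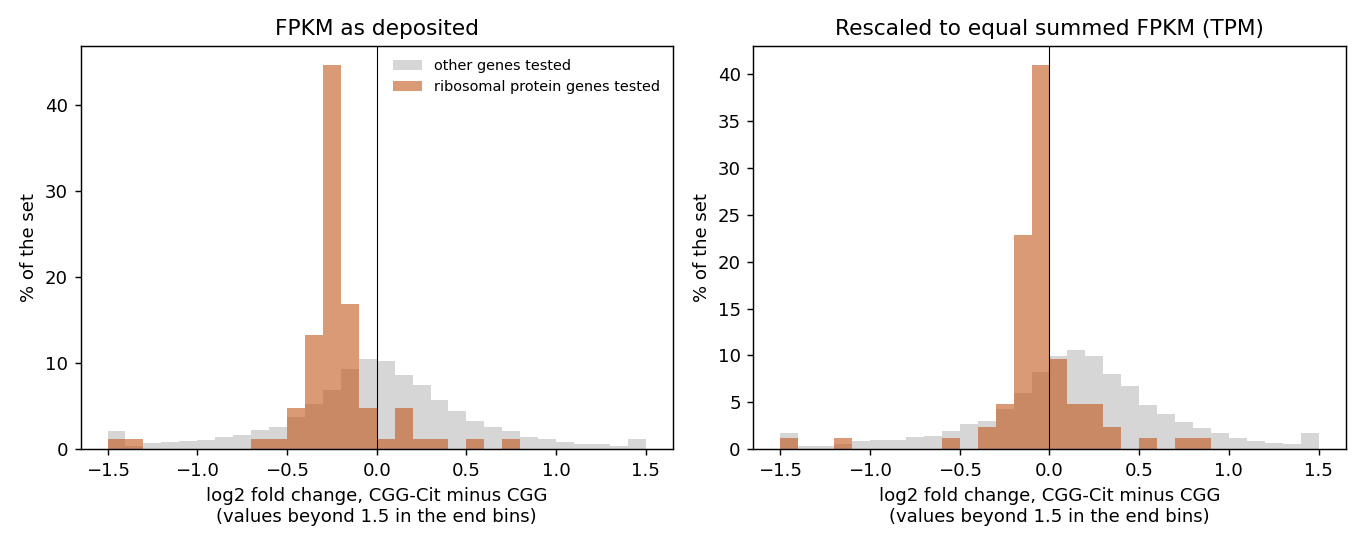
Distribution of the log2 fold change (CGG-Cit minus CGG) of the 83 tested ribosomal protein genes (orange) and of the other genes tested (grey), as a percent of each set, for FPKM as deposited (left) and after rescaling to equal summed FPKM (right). The orange peak lies below 0 on the left, with a median of -0.22, and close to 0 on the right, with a median of -0.05, where the grey distribution has moved to positive values.

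The share of the sequenced reads that went to the family gave the same direction. The 87 genes took 2.99%, 2.80% and 2.85% of the recovered reads in CGG and 2.53%, 2.45% and 2.61% in CGG-Cit. The groups did not overlap, and the CGG-Cit mean was 87.8% of the CGG mean (exact two-sided permutation test, p = 0.1, the smallest that 3 against 3 libraries allow). Their summed FPKM was 36383, 37391 and 36952 in CGG and 31607, 30702 and 31937 in CGG-Cit, again without overlap (p = 0.1, exact permutation test). As a share of the FPKM of all genes, which is the TPM view, the family made up 6.41%, 5.70% and 6.11% in CGG and 5.87%, 5.66% and 5.98% in CGG-Cit. Here the groups overlapped (p = 0.4, exact permutation test).

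**Figure D3:**
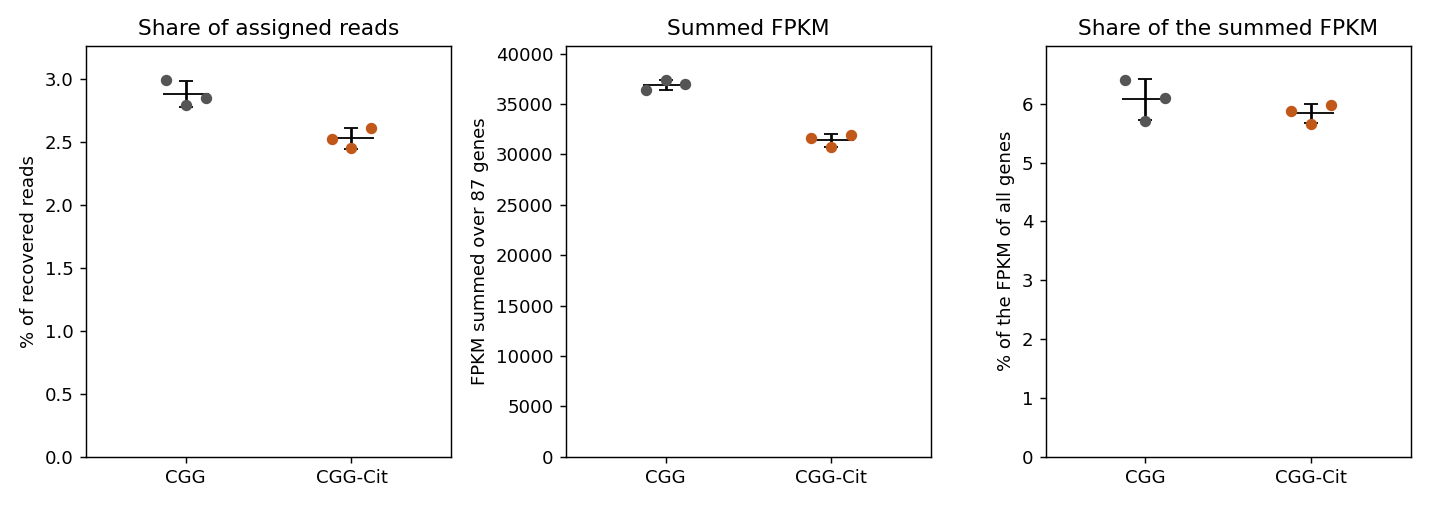
Share of the recovered reads (left, percent), summed FPKM (middle) and share of the summed FPKM of all genes (right, percent) of the 87 ribosomal protein genes. Points are single libraries and the black marks the mean ± SD of 3 libraries; the groups are apart in the left and middle panels and overlap in the right one.

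The large and the small subunit had similar medians. Of the 44 tested rows of canonical large subunit genes, 41 were negative (93.2%), 33 had all CGG-Cit libraries lower (75%) and 1 passed as lower (2.27%), with a median of -0.22. Of the 29 rows of the small subunit, 28 were negative (96.6%), 25 had all CGG-Cit libraries lower (86.2%) and 4 passed as lower (13.8%), with a median of -0.23. Over all genes tested these shares were 49.8%, 22.1% and 9.78%. The difference between the subunits was not tested. Summed FPKM of the large subunit rows ranged from 20624 to 21243 in CGG and from 17304 to 18465 in CGG-Cit, and those of the small subunit from 15216 to 15594 and from 12515 to 13179.

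Of the canonical members, 5 were lower past the threshold, and 3 of them are described here. Rps29, a small zinc-binding protein of the 40S head, measured 638, 632 and 669 FPKM in CGG and 405, 473 and 437 FPKM in CGG-Cit, and its highest CGG-Cit library lay far below its lowest CGG library. It fell by 0.56 on the log2 scale (SE 0.105, adjusted p = 0.0206, n = 3 each, by limma). Rpl36, a protein of the large subunit, measured 735, 722 and 743 FPKM against 562, 499 and 549 FPKM. Its groups were also well apart, and it fell by 0.45 (SE 0.102, adjusted p = 0.0309, by limma).

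Rps28, which lies near the mRNA exit of the small subunit, measured 184, 180 and 194 FPKM in CGG and 139, 155 and 136 FPKM in CGG-Cit. No library crossed over, and the gene fell by 0.38 (SE 0.0913, adjusted p = 0.0363, by limma). The differences of Rps29, Rpl36 and Rps28 are modest, with CGG-Cit means at 438, 536 and 143 FPKM, and their calls were sensitive. None held under TPM scaling, and each was lost when CGG 1, CGG 2, CGG 3, CGG-Cit 1 or CGG-Cit 2 was left out (Rps28 also without CGG-Cit 3). The highest adjusted p over the 19 alternative fits was 0.0802 for Rps29, 0.152 for Rpl36 and 0.23 for Rps28. Rpl15, Rps12 and Rpl13, named here after their values were seen, did not pass, with log2 fold changes of -0.30, -0.46 and -0.37 and adjusted p-values of 0.0536, 0.0538 and 0.0592.

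Rpl3l was the member with the largest difference. The gene (ENSRNOG00000014641, listed on chromosome 10 from 14094754 to 14105308) measured 32.9, 39.5 and 44.4 FPKM in the CGG libraries, from 707, 832 and 910 reads. It measured 1.70, 2.50 and 4.65 FPKM in the CGG-Cit libraries, from 35, 52 and 105 reads. Every CGG library lay far above every CGG-Cit library. The means were 38.9 ± 5.76 and 2.95 ± 1.52 FPKM (SD, n = 3 each), and Rpl3l fell by 3.40 on the log2 scale (SE 0.272, adjusted p = 0.00242, limma), a call kept in all 19 alternative fits with a highest adjusted p of 0.0232.

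Rpl3, the widespread counterpart that sits next to the peptidyl transferase centre, measured 240.4, 229.6 and 229.1 FPKM in CGG and 192, 190.3 and 219 FPKM in CGG-Cit. Its groups did not overlap, its log2 fold change was -0.22 and it did not pass (adjusted p = 0.152). Rpl3l thus stood at 13.7%, 17.2% and 19.4% of the Rpl3 level in CGG and at 0.885%, 1.31% and 2.12% in CGG-Cit. The ratio was separated between the groups at the smallest p that 3 against 3 libraries allow (exact two-sided permutation test, p = 0.1). In both groups Rpl3 remained the far more abundant of the pair.

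Skeletal muscle markers moved with Rpl3l. All 8 that were measured of 10 listed passed as lower, and their summed FPKM ranged from 6329 to 7898 in CGG and from 35.2 to 325 in CGG-Cit. The creatine kinase gene Ckm went from 1231 ± 234 to 20.6 ± 23.6 FPKM and the fast troponin T gene Tnnt3 from 729 ± 14.6 to 19.9 ± 10.6 FPKM (SD, n = 3). Eef1a2, the elongation factor 1 alpha form of muscle and neurons, went from 75.3, 57.9 and 74.8 FPKM to 0.683, 0.161 and 4.00 FPKM, and fell by 5.03 on the log2 scale (adjusted p = 0.00462 by limma). Among the CGG-Cit libraries, CGG-Cit 3 was highest for Rpl3l, for Eef1a2 and for the summed muscle markers. The part of muscle in the Rpl3l result was not tested.

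**Figure D4:**
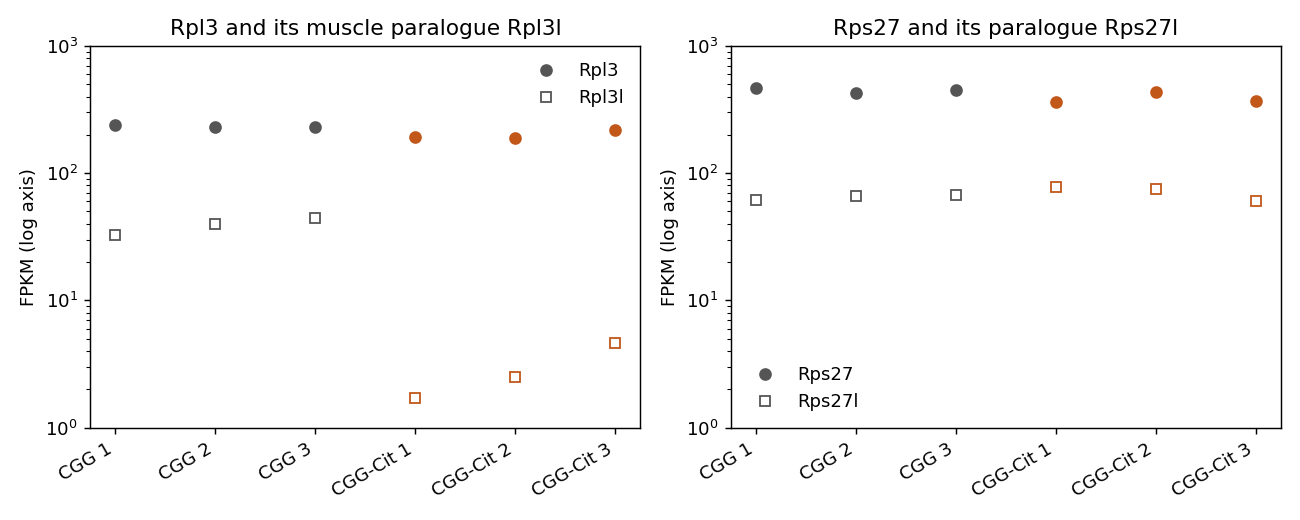
FPKM on a log axis in each of the 6 libraries for Rpl3 and its muscle paralogue Rpl3l (left) and for Rps27 and its paralogue Rps27l (right); filled circles are the canonical gene, open squares the paralogue, grey CGG and orange CGG-Cit. Rpl3l drops from between 32.9 and 44.4 FPKM to between 1.70 and 4.65 FPKM, while the other 3 genes stay within a narrow range.

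No other paralogue was called lower. Rps27l, a p53-induced relative of Rps27, measured 61.0, 66.2 and 67.6 FPKM in CGG and 77.6, 75.2 and 60.9 FPKM in CGG-Cit, with overlapping groups and an adjusted p of 0.475. Rps27 measured 464, 430.2 and 450.2 FPKM against 364, 431 and 371 FPKM, also overlapping (log2 fold change -0.21, adjusted p = 0.219). Rpl22l1, the relative of Rpl22, measured 87.7, 97.2 and 97.1 FPKM against 77.0, 81.9 and 79.6 FPKM. Its groups were apart by a small margin, and it did not pass (log2 fold change -0.24, adjusted p = 0.095). Rpl7l1, which works in the assembly of the large subunit, measured 62.2, 73.3 and 76.9 FPKM against 82.9, 73.8 and 73.8 FPKM, with overlap and a positive log2 fold change of 0.12 (adjusted p = 0.469), whereas Rpl7 had -0.24 (adjusted p = 0.0994).

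Rpl10l was the single member that passed as higher. It measured 2.73, 2.39 and 3.17 FPKM in CGG and 5.40, 5.05 and 5.29 FPKM in CGG-Cit, so the groups were apart. The values rest on 28, 24 and 31 reads against 53, 50 and 57 reads. The log2 fold change was 0.73 (SE 0.125, adjusted p = 0.0176, limma), and the call was lost without CGG 3, without CGG-Cit 1 or without CGG-Cit 2 (highest adjusted p = 0.0625). Rpl10l is an intronless copy of Rpl10, and reads of the 2 genes may be exchanged in counting, so its value is uncertain. Rpl10 itself measured 938, 985 and 934 FPKM against 1027, 894 and 904 FPKM, with overlapping groups (log2 fold change -0.02, adjusted p = 0.921). The 10 tested members outside the canonical set had a median of 0.06 with 5 negative values, against a median of -0.23 and 69 negative values in the 73 tested canonical rows; this difference was not tested.

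Several members have roles outside the ribosome and were fixed by name. Rpl5 and Rpl11, which bind the p53 regulator Mdm2 when ribosome assembly fails, measured 671, 639 and 652 FPKM against 511, 549 and 592 FPKM, and 83.4, 84.8 and 84.9 FPKM against 71.8, 75 and 73.4 FPKM. Both had separate groups and neither passed (log2 fold change -0.25, adjusted p = 0.144, and -0.20, adjusted p = 0.108). Rpsa, also a laminin receptor, measured 1073, 1141 and 1063 FPKM against 892, 888 and 974 FPKM, with separate groups and an adjusted p of 0.16. Rps6, the target of S6 kinases, measured 46.8, 81.1 and 40.2 FPKM against 32.0, 32.2 and 34.5 FPKM. Its CGG-Cit values were tight and its CGG values spread, and it did not pass (log2 fold change -0.68, adjusted p = 0.101). Rps19, the gene most often mutated in Diamond-Blackfan anaemia, measured 159, 236 and 136 FPKM against 168, 204 and 205 FPKM, with overlap and a log2 fold change of 0.15 (adjusted p = 0.644).

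Some rows scattered widely between libraries. Of the 83 tested members, 16 varied by over 1.5 times between libraries of one group and 67 did not. Among the 67, all CGG-Cit libraries lay lower for 58 (86.6%), and among the 16 for 2 (12.5%). A narrow spread by itself makes separate groups more likely, so this contrast largely follows from the limit. The share of all genes under the same limit was not computed, and over all genes tested it was 22.1% without such a limit. The limit of 1.5 was chosen after the values were seen. Rps27a, made as a fusion with ubiquitin, has 2 rows. The row on chromosome 14 measured 760, 843 and 898 FPKM in CGG and 667, 802 and 514 FPKM in CGG-Cit, and the row on chromosome 5 measured 299, 216 and 204 FPKM against 221, 146 and 391 FPKM. Each row overlapped between the groups, with the CGG-Cit 3 library low in one and high in the other. The sum of all 3 rows that name the protein was 1059, 1060 and 1102 FPKM against 888, 949 and 907 FPKM, a tight set without overlap (adjusted p = 0.165). Rplp2, the partner of Rplp1 in the stalk, behaved otherwise: its row measured 25.6, 25.7 and 157 FPKM against 461, 21.0 and 23.8 FPKM, and the sum of its 4 rows was still uneven at 215, 234 and 361 FPKM against 611, 174 and 186 FPKM.

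**Figure D5:**
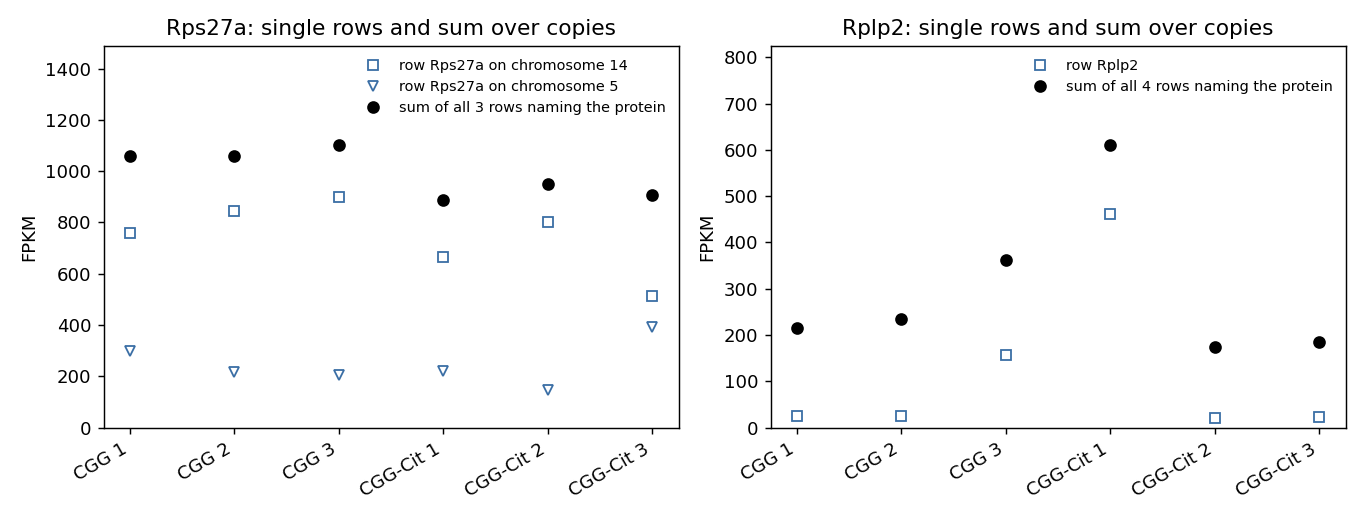
FPKM in each of the 6 libraries of the single rows (open symbols) and of the sum over all rows that name the same protein (filled circles), for Rps27a (left) and Rplp2 (right). The Rps27a sum lies between 888 and 1102 FPKM while its rows scatter; the Rplp2 sum still ranges from 174 to 611 FPKM.

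Summing all rows by the protein that their description names, an alternative added after the data were seen, gave 77 proteins from 202 rows, 122 of them outside the members. These rows include pseudogenes, transcripts without a gene name and relatives such as Rpl36al, and Rps9l1 is the only row for Rps9. Of the 77 proteins 52 had more than 1 row, and 8 still varied by over 1.5 times within a group. The log2 fold change was negative for 74 of the 77, with a median of -0.23, and all CGG-Cit libraries lay lower for 64 (83.1%, against 22.1% of all genes in that fit). It called 7 proteins lower (9.09%, against 9.78% of all genes in that fit) and 0 higher (against 7.85%). At an unadjusted p under 0.05, 37 of the 77 were lower and 0 higher, against 2961 and 2668 of 15880 genes. The 7 included Rps29, Rpl36 and Rps28, and also Rpl22 and Rps26, which matched no row by symbol. For Rpl22 the rows summed are only an L22-like gene and a pseudogene. For Rps26 they are only S26-like or similar rows, among them a processed pseudogene, and a transcript without a gene name. The Rpl22 sum was 303, 306 and 301 FPKM in CGG and 229, 257 and 238 FPKM in CGG-Cit and fell by 0.33 (adjusted p = 0.0457), and the Rps26 sum was 259, 275 and 264 FPKM against 219.8, 209 and 217 FPKM and fell by 0.30 (adjusted p = 0.0487, limma). Both sets of libraries were apart. The sums were fitted only on the deposited scaling and with all 6 libraries, so their counts and calls were not tried under other scalings or leave-outs.

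Genes that build, regulate or work with the ribosome were counted from separate lists. Of 25 ribosome biogenesis genes, 20 were negative, 11 had an unadjusted p under 0.05 in the lower direction (18.6% of all genes did) and 2 passed as lower (8%, against 9.78% of all genes), with a median of -0.24. Dkc1, the pseudouridine synthase of box H/ACA particles, measured 48.7, 46.5 and 49.6 FPKM in CGG and 28.7, 32.1 and 33.7 FPKM in CGG-Cit and fell by 0.60 (adjusted p = 0.0136 by limma). Its partner Nop10 measured 44.6, 46.2 and 50.6 FPKM against 32.4, 36.3 and 35.3 FPKM and fell by 0.43 (adjusted p = 0.0258). Both had separate groups. The Dkc1 call was lost without CGG 3 and without CGG-Cit 2, and the Nop10 call under TPM scaling and without any 1 of the CGG libraries, CGG-Cit 1 or CGG-Cit 2.

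On the RNA polymerase I list 1 gene passed, and it was higher. Polr1a, the largest subunit of the polymerase that makes ribosomal RNA, measured 8.17, 8.05 and 9.21 FPKM in CGG and 23.7, 27.8 and 16.2 FPKM in CGG-Cit. All CGG-Cit libraries were higher, and it rose by 1.28 on the log2 scale (SE 0.193, adjusted p = 0.0135, limma), a call lost only without CGG 3 among the 19 alternative fits. The other genes of the 10 on the list did not pass, 8 of the 10 were negative and the list's median was -0.12. Without a strand setting, reads of an overlapping neighbour cannot be told from those of Polr1a.

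Among 12 elongation factor and other TOP mRNA genes, 11 were negative and 1 passed as lower (8.33%, against 9.78% of all genes), with a median of -0.20. Eef1b2, a nucleotide exchange factor for elongation factor 1, measured 204, 208 and 225 FPKM against 136, 155 and 169 FPKM and fell by 0.47 (adjusted p = 0.032 by limma), with separate groups; the call was lost under TPM scaling and in the same 5 leave-outs as that of Nop10. Eef1a1, the main elongation factor, stood at 3430 FPKM in CGG and 3243 FPKM in CGG-Cit and overlapped (adjusted p = 0.739). Vim was the positive gene of the list, at 1006 and 1422 FPKM, and did not pass (log2 fold change 0.51, adjusted p = 0.0584). None of 11 subunits of the initiation factor eIF3 passed (2 lower at an unadjusted p under 0.05, median -0.12), with Eif3l at -0.33 as the one of smallest p (adjusted p = 0.0584, passing only with library weights). None of 13 regulators passed, with 1 lower at an unadjusted p under 0.05. They include Mtor at 7.32 and 7.87 FPKM, Larp1 at 39.4 and 40.8 FPKM and Myc at 16.6 and 12.2 FPKM.

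Cell type markers also differed between these libraries, with list medians from -5.90 for skeletal muscle to 1.07 for macrophages, where the ribosomal protein genes had -0.22. Neutrophil markers were lower for 9 of 9 tested, with sums of 14743 to 16777 FPKM in CGG and 2350 to 6123 FPKM in CGG-Cit, and erythroid markers for 8 of 9, with sums of 43283 to 53091 and 14528 to 31029 FPKM. Cell cycle genes were lower for 9 of 9 (397 to 541 and 196 to 298 FPKM), osteoblast markers for 6 of 10 (10498 to 15092 and 5086 to 9534 FPKM) and B cell and plasma cell markers for 5 of 9 (1018 to 1160 and 842 to 1049 FPKM, the only one of these sums to overlap). Macrophage markers were higher for 9 of 10 (937 to 1065 and 1741 to 2572 FPKM) and fibroblast markers for 6 of 10 (2472 to 3480 and 3934 to 4938 FPKM). Of these 10 fibroblast markers, 9 were positive and 1, Col1a2, was negative. Col1a2 measured 540, 476 and 744 FPKM in CGG and 322, 219 and 402 FPKM in CGG-Cit. Its groups were apart, and it did not pass (log2 fold change -0.92, adjusted p = 0.056, limma). No marker list had a gene at 0 in every library. The part of these markers in the lower ribosomal protein levels was not tested.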

How the data were processed

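RNA of 6 calvarial defect libraries was sequenced as read pairs on an Illumina NovaSeq, per the labels' protocols. The authors deposited FPKM values for 34045 genes with gene lengths; per the submitters' processing notes the tools were HISAT2 2.0.5, featureCounts 1.5.0-p3 and DESeq2 1.20.0, and the build mRatBN7.2. The strand setting and the annotation were not given in the sources used here. FPKM times the deposited gene length gave whole reads for 100% of values (tolerance 0.01 reads). Coordinates are printed as listed, since chromosome 1 ends at 282724300 in the table and at 270492571 in GRCr8.

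Groups and replicate numbers came from titles and treatments. Genes averaging 0.5 FPKM or more were tested with limma 3.58.1 (lmFit, eBayes with trend, R 4.3.3) on log2(FPKM + 1), a scale that understates changes of low genes, with no block. P-values were Benjamini-Hochberg adjusted over 15965 genes and passed under 0.05. Ratios and shares used exact permutation tests; scripts ran in Python 3.11.15 and were tested on simulated data. Alternatives were pseudocounts 0.1 and 0.5, no filter or 2 FPKM, other scalings, robust or weighted fits, a replicate block, voom on the recovered reads, and leaving out each library.

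The members and the lists (218 of 234 symbols matched) were chosen with earlier results of these data known. Named genes were 20 listed by name (19 matched a member), up to 6 passing members in each direction, the 3 highest and 3 lowest canonical members, and up to 3 passing genes (or the 1 with the smallest p) of each list. Summing copies, the non-overlap counts under each scaling, the spread limit and the promoter features were added after seeing the data. A few genes are not reported here by name.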

Additional observations from a re-analysis of the deposited data

How the results depend on the processing

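The members' median log2 fold change stayed negative in all alternatives (-0.24 to -0.21 when single libraries were left out), and Rpl3l was called in all 19 fits, whereas the counts of calls moved. Members called lower, 6 in the reported fit, were 3 without a filter (3.53%, against 5.1% of all genes). They were 3 with quantile normalization (3.61%, against 9.65%), 10 at 2 FPKM (12.2%, against 11.6%) and 11 with library weights (13.3%, against 12.6%). With TPM scaling there was 1, with a median of -0.048, 7 members with all CGG-Cit libraries lower, and 952 lower and 2202 higher calls over all genes. With equal totals computed without the members there was also 1, with a median of -0.052, 6 such members, and 938 lower and 2112 higher calls. Quantile normalization left 26 members with all CGG-Cit libraries lower (31.3%, against 21% of all genes). Leaving out single libraries gave 1 to 7 members lower and 0 to 1 higher, and 190 to 1622 genes lower and 122 to 1312 higher; those fits have fewer libraries. For canonical members alone, and with copies summed, 0 were called higher, against 7.75% and 7.85% of all genes in those fits. With the replicate number as a block, 2 members were lower (2.41%, against 6.61% of all genes) and 612 genes higher. Same-numbered libraries did not deviate together (correlations -0.096, 0.0016 and -0.078). With 3 libraries per group these values cannot decide whether the numbers pair the samples. Over 57 named genes and 19 fits, 966 values kept their direction and side of the threshold, 115 lost the call and 1 gained it. The cause of the moves under other scalings was not tested.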
